A study of Saccharomyces cerevisiae with 8 samples.

Results

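Translation in budding yeast was described here through 38 genes for its general factors, taken as a given list: 25 for initiation, 11 for elongation and 2 for termination, of 6002 nuclear protein-coding genes. All of them were found in the annotation of the sacCer3 assembly. A factor was counted as present in a library when a same-strand peak, called its start peak here, overlapped the stretch from 300 bp before to 100 bp after the 5′ end of the annotated gene, which in this annotation is the start codon.

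Peaks came from CAGE, cap analysis of gene expression, which sequences the capped 5′ ends of RNA. All 8 libraries were made from BY4741, a haploid laboratory strain of mating type a, carrying a synthetic version of the human HPRT1 locus (synHPRT1) or the same sequence in reversed order (synHPRT1R). The 4 groups of 2 libraries were synHPRT1 on a yeast artificial chromosome (YAC), synHPRT1 integrated in chromosome XI, synHPRT1R on a YAC and synHPRT1R integrated in chromosome XI. SC-Leu was the medium of the YAC strains and YPD that of the integrated strains, and the effects of medium and context cannot be told apart. Cultures at 30 °C were started from an OD of 0.1 and harvested 6 h later at about 0.6. The labels do not say whether replicates were separate cultures or clones, and the p-values here cover the spread between libraries alone, part of which may be technical.

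Initiation factors bring the small ribosomal subunit, the initiator tRNA and the mRNA cap together and find the start codon. Elongation factors deliver aminoacyl-tRNA, move the ribosome along and release spent tRNA, and are needed at every codon. Several of these factors are encoded in yeast by a pair of duplicate genes, some nearly identical in sequence and some used under different conditions.

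Each library held 2995 to 3367 peaks on nuclear chromosomes, and the depth of a library in reads is unknown, since the deposited lists give peaks only. The strength of a peak was taken as the number of tags piled up at its summit, solved from the deposited fold and p-value, and expressed as its percentile among all native peaks of the same strand and library. A level is the same number divided by the background of that list. CAGE counts 5′ ends, so that neither quantity was divided by gene length. A missing peak shows only that none was listed. The weakest native peak listed stood at 1.32 to 1.49 times background, depending on the list. Peaks were scored against their local background, so that where it was raised a peak could need a higher level to be listed. The strain check gave start peaks in all 8 libraries for 4 of 4 genes of mating type a, and for mating type alpha in 1 library for 1 gene of 4.

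Start peaks were found in all 8 libraries for 18 of the 38 factors (47.4%), in 1 to 7 libraries for 11 and in none for 9 (23.7%). The genome-wide shares were 20.6% in all 8 and 33.8% in none. A single library held 19 to 24 of the factors, 21.4 ± 1.69 on average (SD, n = 8), or 56.2% of them. The share of all genes with a start peak was 40.3% in each synHPRT1 YAC library, 39.9% and 40% in the synHPRT1 integrated libraries, 40.1% and 41% in the synHPRT1R YAC libraries, and 42.2% and 44.4% in the synHPRT1R integrated libraries. The 18 factors present everywhere had a middle percentile of 93.2 (median over the 18 of each gene's median), and the 1239 such genes of the whole genome had 77.7.

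**Figure D1:**
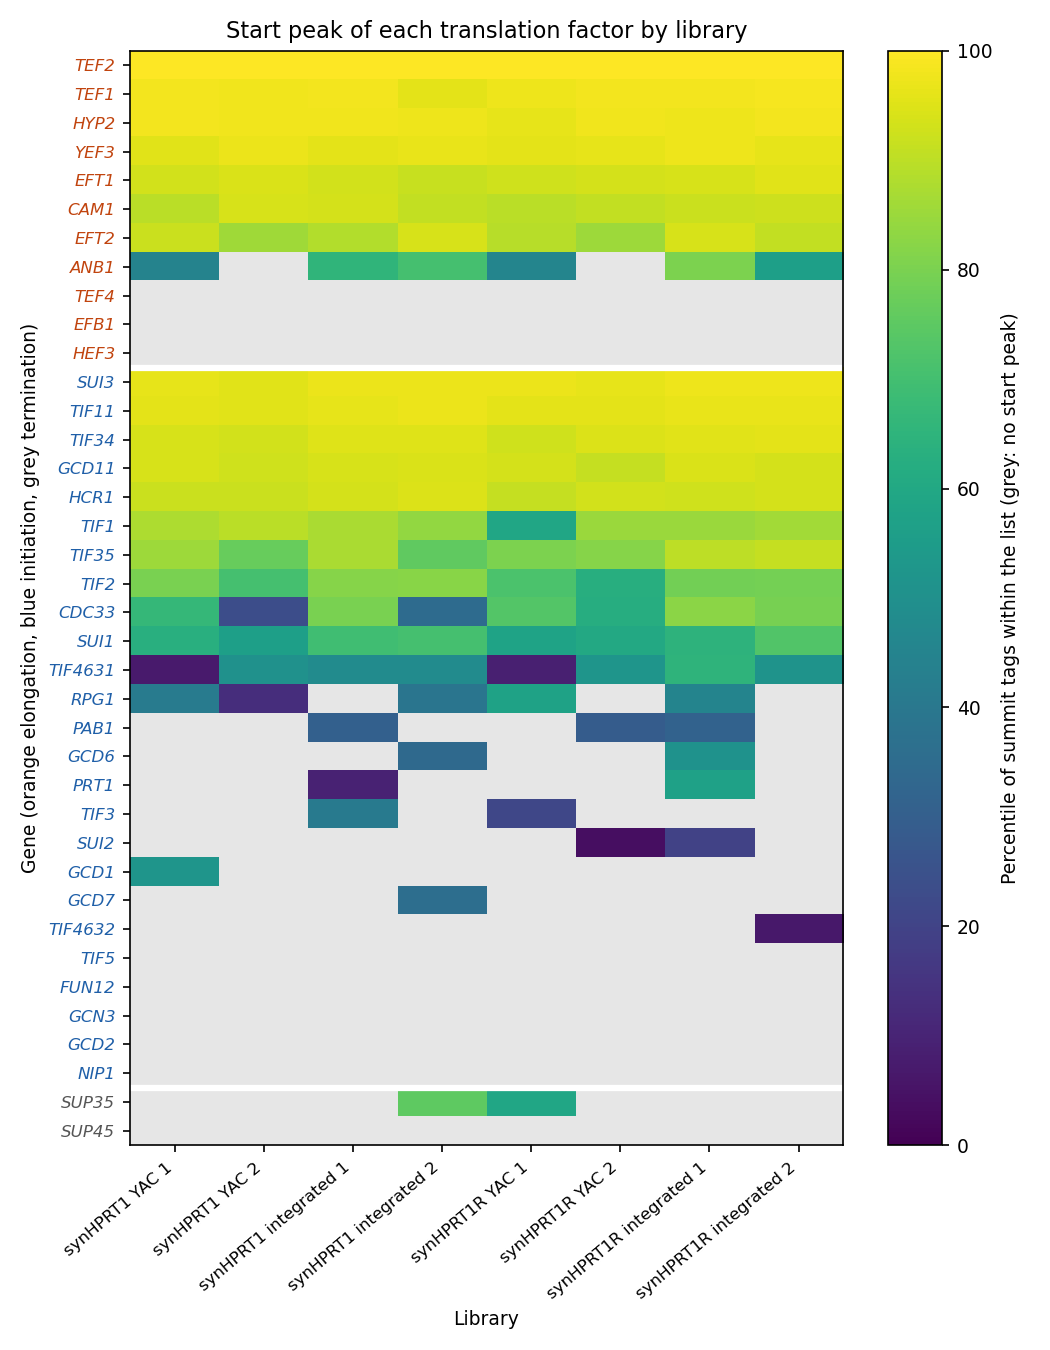
Percentile of summit tags within its list (colour, 0 to 100) for the start peak of each factor (rows) in each library (columns), with grey where no start peak was listed. The rows of the 18 factors present in all 8 libraries are filled from end to end, 9 rows are grey throughout, and CDC33 and TIF4631 change most between libraries among the filled rows.

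Of the 11 elongation genes, 7 had a start peak in all 8 libraries, ANB1 in 6, and TEF4, EFB1 and HEF3 in none. TEF1 and TEF2 both encode eEF1A, the factor that brings aminoacyl-tRNA to the ribosome. TEF2 (chrII:477671-479047, plus strand) carried 91665, 64042, 103257, 58660, 63063, 71243, 112894 and 101092 tags at its summit, in the order synHPRT1 YAC 1 and 2, synHPRT1 integrated 1 and 2, synHPRT1R YAC 1 and 2, synHPRT1R integrated 1 and 2. It stood 4th or 5th from the top of its list in every library, 1198 to 2214 times above background, which was the highest level of any factor. TEF1 (chrXVI:700594-701970, plus strand) carried 17343, 12367, 17445, 6882, 12486, 12978, 14729 and 13899 tags in the same order, at percentiles of 96.0 to 98.5. The ranges of the pair did not overlap. All these summits lay inside the first 200 coding bases, which are identical in the pair, and how reads matching both were placed is unknown. TEF2 exceeded TEF1 by 6.18-fold on average, with a range of 5.05 to 8.52, and TEF1 stood lower in percentile by 1.87 points on average (SD 0.804, n = 8 libraries, lower in 8 of 8; exact two-sided sign-flip p = 0.00781, adjusted over the 4 pairs tested 0.0312). Ranked by the deposited fold the difference was -1.20 points (exact adjusted p = 0.0521). That fold has a ceiling near 50 and hardly separates the pair, with TEF1 at 46.7 to 49.8 and TEF2 at 49.4 to 49.96. Without either YAC library numbered 2 the exact adjusted p was 0.0625. There the exact p was 0.0156, the lowest possible with a library left out, so that this miss does not show a weaker difference.

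The eEF1B complex recharges eEF1A with GTP. EFB1 encodes its catalytic alpha subunit, and TEF4 and CAM1 encode alternative gamma subunits. CAM1 (chrXVI:464401-465648, plus strand) was present in all 8, at a median percentile of 91.6 (89.6 to 94.0) and a level of 46.9 to 89.0 times background. TEF4 (chrXI:282891-284455, plus strand) and EFB1 (chrI:142174-143160, plus strand) had none in any library. They were also the only factors with an intron in the coding sequence, behind a first coding exon of 205 bp in TEF4 and 80 bp in EFB1. Of the 210 genes with a first coding exon of at most 100 bp, 13 were present in all 8 libraries and 59.0% were in none. For the 36 genes with more than 100 and up to 300 bp these values were 3 genes and 61.1%, and for the 5684 genes without an intron 21.0% and 32.7%. Both genes carried sense peaks further in, each in 3 libraries: 441 to 662 bp past the start of EFB1, at percentiles up to 49.2, and 757 to 1219 bp past that of TEF4, at percentiles up to 34.0. The part of the introns in the missing start peaks was not tested. The upstream sequences of this pair are shown because its members differ in presence, as the 250 bases from 350 to 101 before the start codon in the sacCer3 genome, and neither holds a match to the 6 motifs searched (chrXI:282541-282790 for TEF4 and chrXVI:464051-464300 for CAM1, both plus strand).
TEF4: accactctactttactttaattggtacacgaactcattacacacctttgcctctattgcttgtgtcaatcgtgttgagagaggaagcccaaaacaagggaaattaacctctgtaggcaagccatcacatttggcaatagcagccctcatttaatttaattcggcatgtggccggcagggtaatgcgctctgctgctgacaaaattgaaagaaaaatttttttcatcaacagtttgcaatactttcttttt
CAM1: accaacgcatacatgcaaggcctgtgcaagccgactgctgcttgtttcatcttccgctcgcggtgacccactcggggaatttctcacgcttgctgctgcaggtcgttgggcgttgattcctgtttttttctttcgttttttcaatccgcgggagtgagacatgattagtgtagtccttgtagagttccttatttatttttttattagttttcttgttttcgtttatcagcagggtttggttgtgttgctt

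EFT1 and EFT2 both encode eEF2, which moves the ribosome by a codon, and each was present in all 8. EFT1 (chrXV:575098-577626, plus strand) lay at a median percentile of 93.4 (91.6 to 95.5), and its tags ranged from 2917 to 4875. EFT2 (chrIV:1243230-1245758, plus strand) lay at 90.1 (85.4 to 94.0), with 1149 to 4339 tags. The ranges overlapped, and EFT2 varied more between libraries than EFT1. EFT1 was higher in 6 of 8 libraries, by 3.53 ± 3.85 percentile points (SD, n = 8; exact two-sided sign-flip p = 0.0469, adjusted 0.0625) and 1.57-fold in tags. Ranked by the deposited fold the difference was 24.4 points (exact adjusted p = 0.0312) and by the deposited −log10 p 8.51 (exact adjusted p = 0.0156). Without synHPRT1 integrated 2 it was 4.34 (exact adjusted p = 0.0469). That adjustment was over fewer pairs, since HYP2 and ANB1 then lacked 6 shared libraries. The local background around EFT2 was 3.72 to 6.29 times that of the genome and around EFT1 1.64 to 2.45 times. The window of EFT1 overlaps the same-strand gene VPS17, and its part in the EFT1 peak was not tested.

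YEF3 and HEF3 encode eEF3, an ATPase particular to fungi that acts with eEF1A and clears the exit site. YEF3 (chrXII:636780-639914, plus strand) was present in every library at percentiles of 95.6 to 97.5, 125 to 199 times above background. HEF3 (chrXIV:606319-609453, plus strand) had none, and an antisense peak inside the gene was listed in 1 library. Their upstream sequences differ in motif matches (chrXII:636430-636679 and chrXIV:605969-606218, plus strand). Capitals in YEF3 mark, from left to right, a Rap1 match, an Abf1 match and the TATA box sequence on both strands. Capitals in HEF3 mark a match to the Rox1 core on the opposite strand. YEF3 also holds a Rox1 core match 58 to 53 bases before the start codon, outside the printed stretch.
YEF3: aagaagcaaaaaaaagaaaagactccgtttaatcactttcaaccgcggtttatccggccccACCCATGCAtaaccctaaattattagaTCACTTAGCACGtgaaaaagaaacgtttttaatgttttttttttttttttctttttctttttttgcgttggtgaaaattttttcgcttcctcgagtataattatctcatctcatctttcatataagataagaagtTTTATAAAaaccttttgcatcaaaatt
HEF3: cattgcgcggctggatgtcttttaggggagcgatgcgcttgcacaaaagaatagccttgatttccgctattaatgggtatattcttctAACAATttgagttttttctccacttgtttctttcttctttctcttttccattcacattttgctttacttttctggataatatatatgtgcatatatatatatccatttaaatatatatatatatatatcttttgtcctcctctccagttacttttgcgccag

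HYP2 and ANB1 encode eIF5A, a factor carrying the modified residue hypusine that helps the ribosome through difficult stretches. HYP2 is known as the copy used with oxygen and ANB1 as the copy used without it, under repression by the DNA-binding protein Rox1. HYP2 (chrV:85676-86149, plus strand) was present in every library at percentiles of 96.1 to 98.2, with 7852 to 14799 tags. ANB1 (chrX:524908-525381, minus strand) carried 371 tags in synHPRT1 YAC 1, 721 and 758 in the synHPRT1 integrated libraries, 396 in synHPRT1R YAC 1, and 1353 and 424 in the synHPRT1R integrated libraries. It had no start peak in either YAC library numbered 2. Every ANB1 value lay below every HYP2 value. Over the 6 libraries with both peaks HYP2 exceeded ANB1 by 19.5-fold in tags (7.57 to 39.5) and by 37.1 ± 14.0 percentile points, higher in 6 of 6 (SD, n = 6; exact two-sided sign-flip p = 0.0312 and adjusted p = 0.0625, where 6 libraries cannot give a p below 0.0312). Ranked by the deposited −log10 p the difference was 54.6 points (exact adjusted p = 0.0417). The local background at ANB1 was 2.19 to 3.17 times that of the genome.

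The upstream sequences of HYP2 and ANB1 differ in matches to the Rox1 core (chrV:85326-85575, plus strand, and chrX:525482-525731, minus strand). Capitals mark ATTGTT, the core of the Rox1 site, which occurs 4 times in ANB1 and not in HYP2 between 350 and 51 bases before the start codon. Of 6001 promoters of that length, 6 (0.1%) hold as many. A match is a description and does not show that the site is bound.
HYP2: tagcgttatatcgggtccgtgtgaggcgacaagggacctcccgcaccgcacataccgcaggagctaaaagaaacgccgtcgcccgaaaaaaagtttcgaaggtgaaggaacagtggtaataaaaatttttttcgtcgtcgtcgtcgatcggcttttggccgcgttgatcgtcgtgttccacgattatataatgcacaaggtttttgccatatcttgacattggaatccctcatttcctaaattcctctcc
ANB1: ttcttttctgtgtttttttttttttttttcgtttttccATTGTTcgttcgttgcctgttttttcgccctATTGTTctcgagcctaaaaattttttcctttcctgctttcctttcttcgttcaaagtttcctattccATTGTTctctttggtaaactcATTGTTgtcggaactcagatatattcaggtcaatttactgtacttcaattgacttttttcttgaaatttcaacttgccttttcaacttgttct

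**Figure D2:**
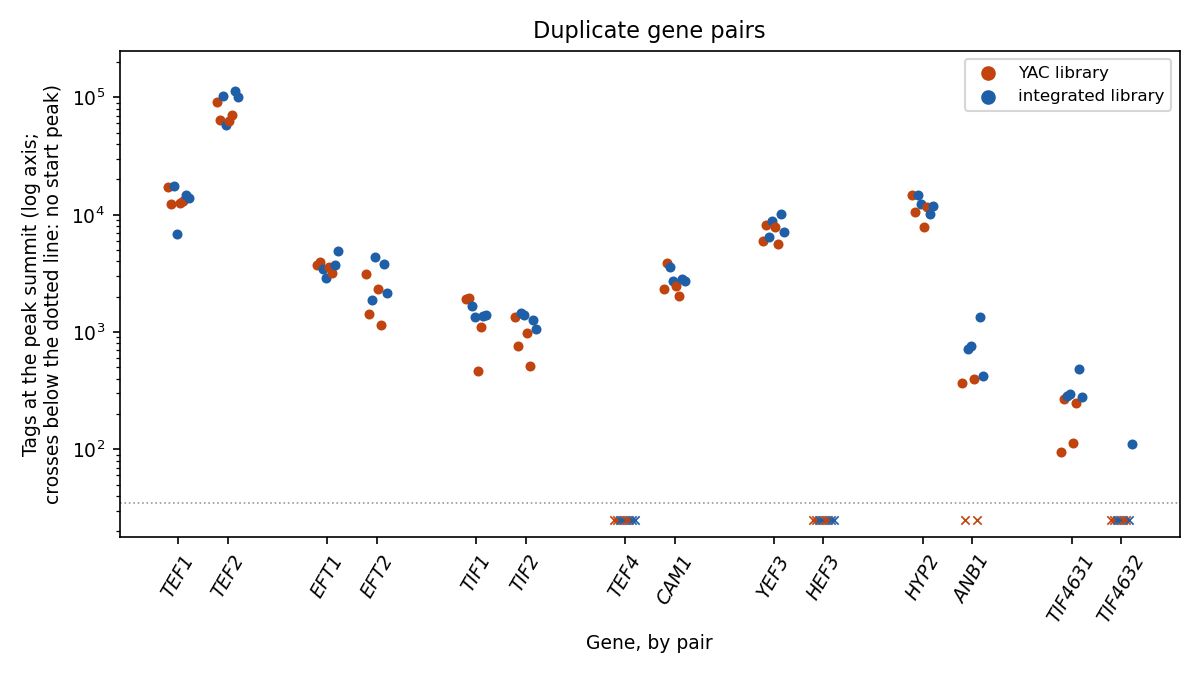
Tags at the summit of the start peak (log axis) for both genes of 7 duplicate pairs, 1 point per library, YAC libraries in orange and integrated libraries in blue, with crosses under the dotted line where no start peak was listed. TEF2 lies above TEF1 and HYP2 above ANB1 in every library compared, EFT1 overlaps EFT2, TIF1 overlaps TIF2, and in the other 3 pairs 1 gene has start peaks in 0 or 1 library.

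Of the 25 initiation genes, 11 had a start peak in all 8 libraries, 9 in 1 to 7 and 5 in none. The eIF4F group binds the cap and unwinds the leader. TIF1 and TIF2 encode the same helicase, eIF4A, and both were present in all 8 libraries. TIF1 (chrXI:554987-556174, plus strand) lay at 83.6 to 89.5 in 7 libraries and at 59.2 in synHPRT1R YAC 1. TIF2 (chrX:153504-154691, minus strand) lay at 62.9 to 82.3. TIF1 was higher in percentile in 7 of 8 libraries, by 7.04 ± 10.6 points (SD, n = 8; exact two-sided sign-flip p = 0.102, adjusted 0.102), a difference within the spread. Without synHPRT1R YAC 1 it was 9.83 ± 7.66 points (n = 7; exact adjusted p = 0.0234). That adjustment was over fewer pairs, since HYP2 and ANB1 then lacked 6 shared libraries. The genes lie on opposite strands, whose lists differ in background, and in tags alone TIF1 was higher in 6 of 8 libraries (1.24-fold; exact p = 0.258).

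CDC33 (chrXV:60383-61024, minus strand), the cap-binding protein eIF4E, was present in every library, but its percentile moved from 23.7 to 82.5. It was 23.7 in synHPRT1 YAC 2 and 34.8 in synHPRT1 integrated 2, and 62.2 to 82.5 in the other 6 libraries. The low pair came from different groups, both of them synHPRT1 and both numbered 2.

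TIF4631 and TIF4632 encode eIF4G, the scaffold of the cap complex. TIF4631 (chrVII:824059-826917, plus strand) was present in all 8 libraries, at percentiles of 7.15 in synHPRT1 YAC 1 and 8.88 in synHPRT1R YAC 1 and of 48.3 to 64.9 in the other 6. TIF4632 (chrVII:406860-409604, minus strand) had a start peak in synHPRT1R integrated 2 alone, at percentile 6.48 and 1.58 times above background. Neither gene exceeded percentile 64.9 in any library, and the single TIF4632 peak was near the weakest listed. Their upstream sequences are shown as another pair that differs in presence (chrVII:823709-823958, plus strand, and chrVII:409705-409954, minus strand), with an Abf1 match on the opposite strand in capitals.
TIF4631: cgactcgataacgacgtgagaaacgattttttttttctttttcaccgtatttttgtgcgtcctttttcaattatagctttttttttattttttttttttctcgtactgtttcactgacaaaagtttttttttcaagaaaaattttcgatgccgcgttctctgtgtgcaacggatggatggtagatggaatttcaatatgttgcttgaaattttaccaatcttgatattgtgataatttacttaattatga
TIF4632: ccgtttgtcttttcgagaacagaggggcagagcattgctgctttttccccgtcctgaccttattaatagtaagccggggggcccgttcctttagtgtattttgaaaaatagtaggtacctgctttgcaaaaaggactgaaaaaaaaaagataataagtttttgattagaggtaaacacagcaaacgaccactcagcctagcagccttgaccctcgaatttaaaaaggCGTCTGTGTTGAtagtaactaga

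Of the remaining cap-complex genes, PAB1, the poly(A)-binding protein, had a start peak in 3 libraries at percentiles of 29.3 to 31.4. TIF3, which encodes the helicase partner eIF4B, had it in 2, at 21.4 and 41.0. Sense peaks inside the gene were listed in 5 libraries for PAB1 and in 6 for TIF3, the most of any factor.

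SUI1 and TIF11 encode eIF1 and eIF1A, which hold the scanning ribosome open. Both were present in all 8 libraries, at very different strengths. TIF11 (chrXIII:789378-789839, minus strand) lay at 95.4 to 97.0, 113 to 195 times above background. SUI1 (chrXIV:187170-187496, minus strand) lay at 56.4 to 72.8, 5.89 to 10.6 times above background. TIF5, which encodes the GTPase activator eIF5, and FUN12, which encodes the subunit-joining GTPase eIF5B, had no start peak in any library.

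The 3 subunits of eIF2, which carries the initiator tRNA, also differed. SUI3, the beta subunit (chrXVI:100496-101353, plus strand), lay at 95.5 to 97.6, the highest median percentile of any initiation gene (97.1). GCD11, the gamma subunit (chrV:205251-206834, plus strand), lay at 91.1 to 94.5. SUI2, the alpha subunit (chrX:451020-451934, plus strand), had a start peak in 2 libraries, at 3.56 in synHPRT1R YAC 2 and 19.6 in synHPRT1R integrated 1, with 66 and 120 tags.

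The eIF2B complex exchanges nucleotide on eIF2, a step regulated in the general amino acid control. None of its 5 genes was present in all 8 libraries. GCD6, the catalytic epsilon subunit, had a start peak in 2 libraries, at 34.2 and 51.1. GCD1 (gamma) had it in synHPRT1 YAC 1 alone, at 52.1, and GCD7 (beta) in synHPRT1 integrated 2 alone, at 35.99. At these peaks the local background was 3.24 and 2.30 times that of the genome, and the deposited fold was 2.24 and 1.49. GCN3 (alpha) and GCD2 (delta) had none.

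The eIF3 scaffold was split by subunit. TIF34 (the i subunit), TIF35 (g) and the loosely bound HCR1 (j) were present in all 8 libraries. TIF34 (chrXIII:557481-558524, minus strand) lay at 92.6 to 95.9, HCR1 at 91.3 to 94.9 and TIF35 at 75.4 to 91.4. Of the large core subunits, RPG1 (a) had a start peak in 5 libraries at 13.0 to 57.7, PRT1 (b) in 2 at 9.53 and 57.1, and NIP1 (c) in none. The PRT1 peak of synHPRT1 integrated 1 began 420 bp before the gene, and its window overlaps the same-strand gene PRE10. Such a same-strand neighbour reached into the window of 6 factors (15.8%) and of 15.9% of all genes. Besides EFT1 and PRT1 these were TIF2, GCD11, NIP1 and TIF35, with GLG2, YAT2, UPA2 and CYM1 as neighbours.

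SUP35 encodes eRF3, the GTPase of the release complex and a known prion protein, and SUP45 encodes eRF1, which reads stop codons. SUP35 (chrIV:808324-810381, plus strand) had a start peak in synHPRT1 integrated 2 at percentile 75.4 and in synHPRT1R YAC 1 at 59.3. There the local background was 6.11 and 3.49 times that of the genome. SUP45 (chrII:530869-532182, minus strand) had no start peak, and a sense peak inside the gene in 2 libraries.

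Elongation genes had a start peak more often, and at a higher median percentile and level, than initiation genes in each of the 8 libraries. In a library 70.5% ± 4.21 of elongation genes and 53.5% ± 5.21 of initiation genes had one (SD, n = 8). The difference was 17.0 ± 5.16 percentage points, above 0 in 8 of 8 libraries, with a range of 8.73 to 24.7. Among those present, the median percentile was 95.4 ± 1.00 for elongation and 82.0 ± 4.67 for initiation, and the ranges did not overlap (94.3 to 97.0 against 73.2 to 88.7). That difference was 13.4 ± 4.45 points, with a range of 7.26 to 21.2. As levels, the medians were 128 ± 29.6 and 21.8 ± 7.70 times background. The median percentile of all start peaks was 59.0 ± 0.590. The comparison is over a fixed set of genes in 8 libraries and was not tested, because genes of a step are not replicates. The steps also differ in strand: ANB1 is the only elongation gene on the minus strand, where most initiation genes lie. Background was 41.0 to 52.65 tags in plus-strand lists and 67.0 to 94.8 in minus-strand lists. The part of strand in the difference was not tested.

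**Figure D3:**
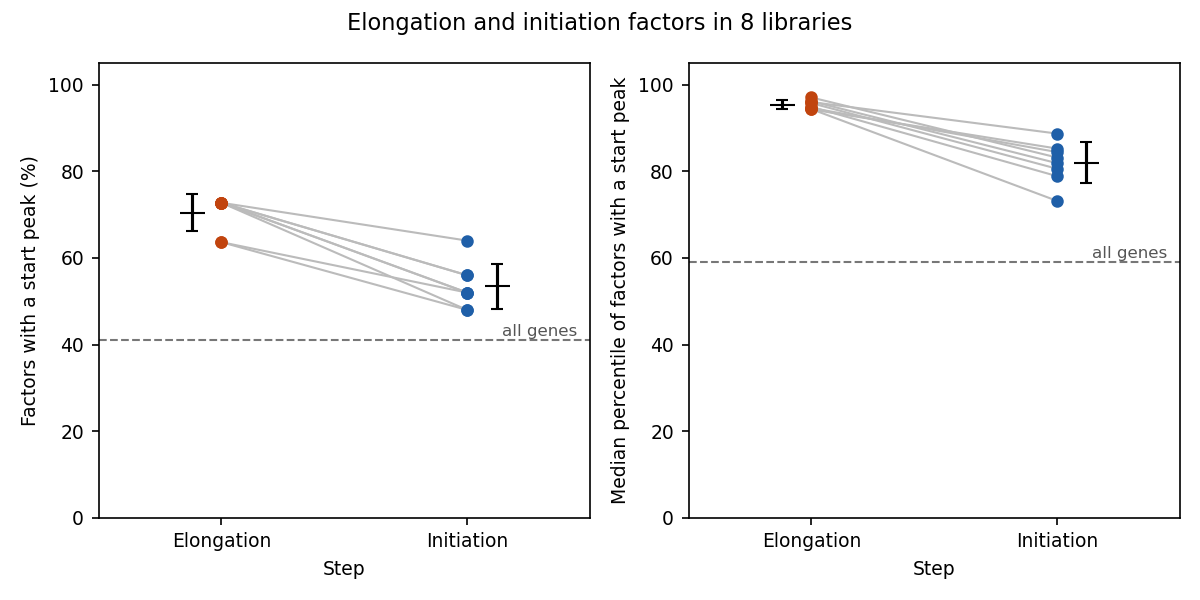
Share of factors with a start peak (left, %) and median percentile of those present (right) for elongation and initiation, with 1 line per library, the mean ± SD beside the points and the mean over all genes as a dashed line. All 8 lines fall from elongation to initiation in both panels, by 17.0 points on the left and 13.4 on the right on average.

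This difference changed with gene length. The median length was 1377 bp for elongation genes and 1218 bp for initiation genes. Of 12 initiation genes of up to 1200 bp, 9 were present in all 8 libraries, and of 13 longer ones 2 were. Of 8 elongation genes above 1200 bp, 6 were present in all 8. Only 3 were shorter: HYP2, ANB1 and the intron-bearing EFB1. Among all genes the shares were 26.7% up to 1200 bp and 14.6% above. Within the longer genes elongation led by 44.2 ± 8.22 percentage points in share and 47.6 ± 5.05 in percentile (SD, n = 8). Within the shorter ones the direction turned, to -19.8 ± 16.6 and -2.56 ± 10.9 points. Among genes without an intron elongation led by 32.6 ± 5.60 percentage points. These splits were chosen after seeing the data, and the part of length in the difference was not tested.

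**Figure D4:**
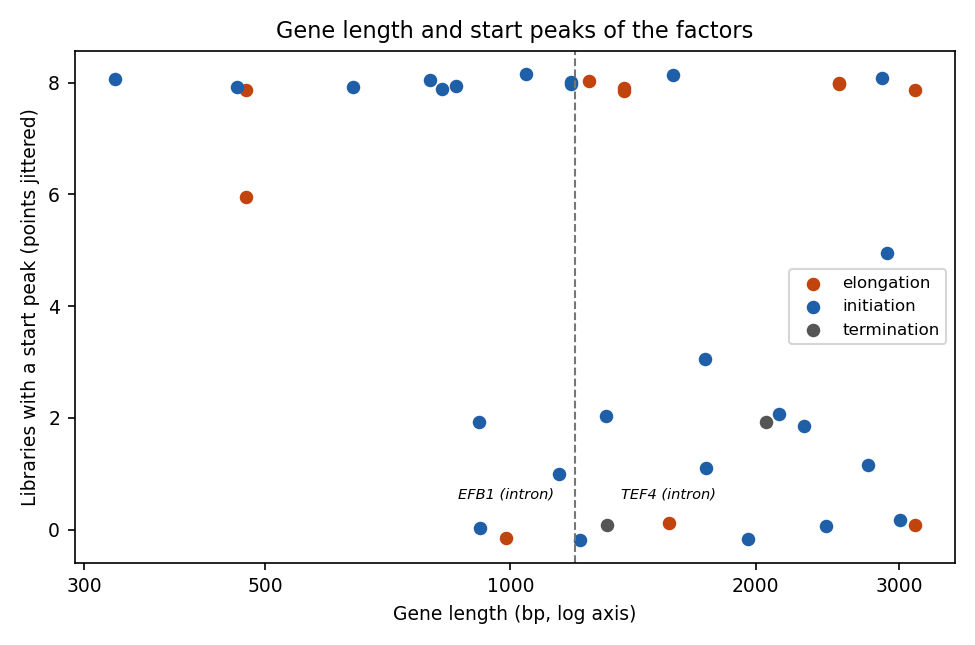
Number of libraries with a start peak (vertical axis, jittered) against gene length in bp (log axis) for elongation, initiation and termination genes, with a dashed line at 1200 bp. Initiation genes left of the line lie mostly at 8 libraries and those right of it mostly at 5 or fewer, while 6 of 8 elongation genes right of the line lie at 8.

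Over the 18 factors present in all 8 libraries the upstream edge of the start peak lay 61 bp before the start codon (median, quartiles 41.5 and 69.1), and over all 1239 such genes 55 bp (38.8 and 78). TEF1, TEF2 and YEF3 had edges of 43, 46.5 and 41 bp, CAM1 the most distant at 98.5 bp (medians over 8 libraries). No listed peak was narrower than 200 bp, so that the edge and not the summit was read.

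The duplicate pairs differed in how alike their sequences are. The first 200 coding bases were identical for TEF1 and TEF2 and for EFT1 and EFT2, 99.5% identical for TIF1 and TIF2 and 94% for HYP2 and ANB1. The 100 bases before the start codon were 29% to 33% identical in these pairs, compared base by base without gaps, and no 36-base word of them had another copy in the genome. In the other 3 pairs the first 200 coding bases were 65% identical for YEF3 and HEF3, 40.5% for TIF4631 and TIF4632 and 35.5% for TEF4 and CAM1. The 100 bases before the start codon were 30%, 33% and 24% identical in the same order. The summits of TEF1, TEF2, EFT1 and EFT2 lay inside their first 200 coding bases in every library. Every 36-base word of those 200 bases had another copy in the genome. The sources used here do not say how reads with several matches were placed, and its part in the values of these pairs was not tested.

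Between 350 and 51 bases before the start codon, 6 motifs were searched on both strands. Abf1 (TCA and ACG with 6 free bases between) matched 16 of the 38 factors (42.1%) and 16.2% of all promoters. Reb1 (CGGGTAA) matched 10 (26.3%) and 8.38%. Both proteins bind many promoters and keep them free of nucleosomes. Rap1 (ACCCANNCA), an activator of ribosomal protein genes, matched TEF1 and YEF3 (5.26%) and 3.73% of all promoters. The TATA box (TATAAA) matched 15 (39.5%) and 47.5%, and the Rox1 core (ATTGTT) 10 (26.3%) and 33.3%. Gcn4 (TGACTC), the activator of amino acid synthesis, matched none of the factors and 8.07% of promoters. Overlapping matches of different motifs were each counted. Of the 16 factors with an Abf1 match, 12 were initiation genes, as were 25 of all 38 factors. Of the same 16, 8 were present in all 8 libraries, as were 18 of all 38. No match says only that these letters are not in this window.

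The comparison of YAC with integrated libraries asked whether carrying the synthetic DNA on its own chromosome, with the medium that goes with it, went with other start peaks at the factors. Fisher's exact test called 0 of 38 factors and 0 of 6002 genes (0%) at an adjusted p under 0.05, and 11 genes had an unadjusted p under 0.05. The smallest p for 4 libraries against 4 is 0.0286, too large to pass adjustment over 6002 genes. No factor was present in 4 of 4 libraries of a context and 0 of 4 of the other, against 0.1% of genes in favour of YAC and 0.0833% in favour of integrated. The count of libraries was higher for integrated in 6 factors and for YAC in 2, RPG1 and GCD1. ANB1 was in 4 of 4 integrated against 2 of 4 YAC libraries, GCD6 and PRT1 in 2 of 4 against 0 of 4, and PAB1, TIF4632 and GCD7 differed by 1 library. Of all genes, 19.7% were in more integrated and 16.3% in more YAC libraries.

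Strength was compared for the 18 factors among the 1239 genes with a start peak in all 8 libraries, as percentile within that set, with limma. No factor passed at an adjusted p under 0.05, where 32 genes did (2.58%), 24 of them higher (1.94%) and 8 lower (0.646%) in YAC libraries. Without limma's trend the count was 0, and without synHPRT1R integrated 2 it was 17. The estimate was lower in YAC libraries for 15 of the 18 factors, higher for TEF1 and EFT1 and at 0 for TEF2, with a median of -2.84 percentile points. It was lower for 635 of the 1239 genes and higher for 597, with a median of -0.13. The nearest to the threshold was SUI3 at -1.91 ± 0.650 (SE; limma adjusted p = 0.183; means 91.1 and 93.0, n = 4 each). TIF11 was at -1.36 ± 0.464 (adjusted p = 0.183) and TIF34 at -3.33 ± 1.23 (adjusted p = 0.219). In TIF11 and SUI1 all 4 YAC libraries lay below all 4 integrated ones, as in 4.92% of the genes, and in no factor above, as in 5% of the genes. Without synHPRT1R YAC 2, TIF34 passed at -4.87 ± 0.837 (adjusted p = 0.0153), and without synHPRT1 integrated 1, TEF1 passed at 2.28 ± 0.504 in the other direction (adjusted p = 0.0469).

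**Figure D5:**
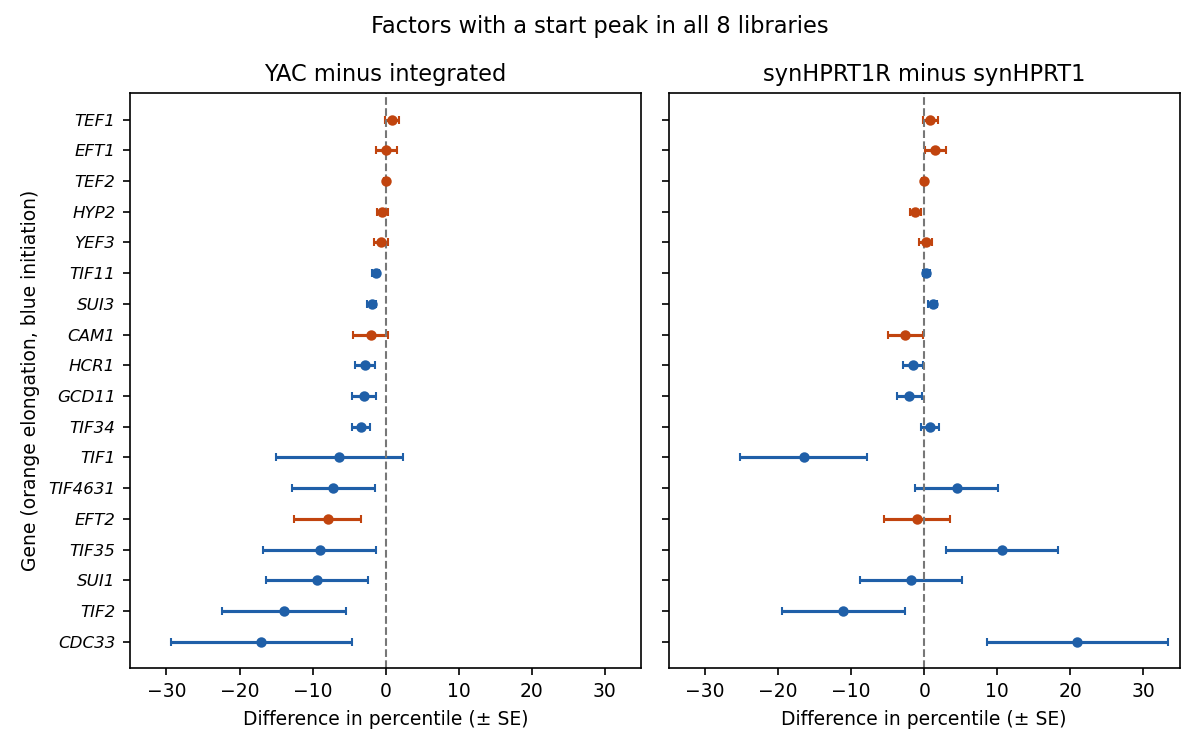
Difference in percentile (± SE from limma) for the 18 factors with a start peak in all 8 libraries, YAC minus integrated on the left and synHPRT1R minus synHPRT1 on the right. On the left 15 of 18 points lie below 0, 1 lies at 0 and 2 above, none past the threshold, and on the right they lie on both sides of 0.

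CDC33 was at 25.9 ± 16.9 over the YAC libraries and 42.9 ± 25.7 over the integrated ones (SD, n = 4 each; limma adjusted p = 0.570), and TIF2 at 40.6 ± 11.5 and 54.5 ± 5.35 (adjusted p = 0.482). At the top of the list percentiles have little room, and that of TEF2 was 99.5 in both. limma was also run on the log2 of the level, less the median of its strand. There TEF2 was at -0.260 ± 0.175 in YAC against integrated libraries (SE; limma adjusted p = 0.525). In that fit only TEF1 and EFT1 were higher in YAC libraries, and no factor passed.

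Between synHPRT1R and synHPRT1, Fisher's exact test again called 0 of 6002 genes (0%), with 11 at an unadjusted p under 0.05. Presence was equal in 32 of the 38 factors, counting the 9 with no peak, and SUI2 differed most, with 2 of 4 synHPRT1R libraries and 0 of 4 synHPRT1 libraries. No factor was in 4 of 4 against 0 of 4, as 0.117% of genes were in favour of synHPRT1R and 0.0666% in favour of synHPRT1. limma called 0 of 1239 genes (0%), with 60 (4.84%) at an unadjusted p under 0.05 and none of them a factor. In no factor did all 4 libraries of a sequence lie above all 4 of the other, as in 1.05% of the genes in each direction. TIF1 was lowest in p at -16.5 ± 8.66 points (SE; limma adjusted p = 0.876), with 1 synHPRT1R library, YAC 1, at 22.5 and the others at 62.5 to 64.1. CDC33 had the largest estimate of the factors, 20.9 ± 12.4 points higher in synHPRT1R (SE; limma adjusted p = 0.881). The interaction of sequence and context called 0 of 1239 genes (0%), with 99 (7.99%) at an unadjusted p under 0.05 and no factor among them.

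Other genes of translation were counted in the same way. Of 28 accessory factors, 9 were present in all 8 and 9 in none. The helicase gene DED1 and the eIF4E-binding protein gene CAF20 were among the former, and the eIF2 kinase gene GCN2 and the recycling factor gene RLI1 among the latter. Of 20 cytosolic aminoacyl-tRNA synthetase genes, 10 were present in all 8 and 2, ALA1 and MES1, in none. Of 8 mitochondrial factors, only MEF2 was present in all 8. Sense peaks inside the body of the general factors numbered 40 on 15 of them (39.5%) over the 8 libraries, at a median percentile of 21.1 and at most 53.8, and 23.3% of all genes carried one. Antisense peaks numbered 8 on 7 factors (18.4%), and 17.4% of all genes carried one.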

How the data were processed

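Per the submitters' processing notes, the build was sacCer3 and the tools were MACS2 2.1.0, deepTools 3.5.0, Bowtie2 2.2.9, SAMtools 1.9 and bcl2fastq 2.20, with no role stated for any. Of 32 peak lists deposited by the authors, each made for 1 library, 1 strand and 1 of 2 references, those with the synthetic DNA as a contig of its own were used. Those with it inside chromosome XI served as an alternative. The deposited fold is a ratio of summit signal to local background and never exceeded 49.99. The deposited −log10 values are those of each peak's p and q. The deposited column of summit offsets gave peak positions, and the deposited score was not used.

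The members, lists and tests were chosen with earlier results of these data known. Summit tags were solved from fold and p-value under a Poisson model and were whole within 0.1 for 97.7% to 99.5% of peaks in a list. The labels mention no molecular identifiers, so that tags need not be independent molecules. Background was 41.0 to 94.8 tags. Where several peaks overlapped a window, the strongest was taken. Genes, introns and sequences came from RefSeq assembly R64, which is sacCer3. Pairs were compared by exact sign-flip tests over at least 6 libraries and presence by Fisher's exact test (SciPy 1.17.1). Percentiles were compared by limma 3.58.1 with trend in R 4.3.3. Benjamini-Hochberg adjustment was over all genes or over the pairs tested, which were 4 with all libraries in. Alternatives were ranks by fold or p-value, log2 levels in limma, a stricter q, other windows and equal list lengths. Further ones were the other reference, a block for replicate number, and leaving out libraries. Values in every library were planned for members of pairs, members missing somewhere and the 3 strongest of initiation and elongation, and upstream sequence for pairs that differ in presence and the strongest member. The last of these sequences is not reported here. Sequence is printed to 101 bases before the start codon. In simulated data limma recovered 118 of 200 genes shifted by 30 percentile points among 1239, with 10 others called.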

Additional observations from a re-analysis of the deposited data

Results flagged for a closer look

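Among 135 overlapping sets of 4 or 8 libraries, 16 held a library far from the rest by Dixon's criterion, which chance alone meets in about 1 of 20 sets. In synHPRT1 integrated 2, TEF1 lay at percentile 96.0 against 97.7 to 98.5 in the other 7 libraries, and TEF1 minus TEF2 was -3.76 against -2.10 to -1.32. That library also had TEF2 at 99.76 against 99.82 in the other synHPRT1 libraries, and CDC33 at 34.8 against 79.6 to 82.5 in the other integrated ones. In synHPRT1R YAC 1, HYP2 lay at 96.1 against 97.5 to 98.2 and TIF1 at 59.2 against 83.6 to 89.5 in the other 7. In synHPRT1 YAC 1, TIF4631 lay at 7.15 against 48.3 to 50.6 in the other synHPRT1 libraries. In synHPRT1 YAC 2, the share of elongation genes present was 63.6% against 72.7% in the other synHPRT1 libraries, that of initiation genes 48% against 52% in the other YAC libraries, and TIF11 lay at 95.4 against 96.0 there. In synHPRT1R YAC 2, the elongation share was likewise 63.6% against 72.7%, the gene in question being ANB1 in both.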

How the results depend on the processing

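The 18 and 9 factors with a start peak in every library and in none became 13 to 18 and 9 to 11 under the 6 alternatives to lists and windows, and 18 and 9 to 10 when each library was left out in turn. Elongation led initiation by 12 to 20.0 percentage points in share and by 9.24 to 13.4 points in percentile under the alternatives to lists, windows and ranks that bear on it, and by 15.8 to 18.1 and 12.3 to 14.2 without single libraries. Splits chosen after seeing the data moved it. Up to 1200 bp, where elongation has 3 genes, it turned to -19.8 and -2.56. Above 1200 bp it was 44.2 and 47.6, without intron-bearing genes 32.6 in share, and with absent factors set to percentile 0 it was 75.2, which by construction mixes presence into rank.

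Ranked by the deposited fold, which has a ceiling, TEF1 minus TEF2 was -1.20 (exact adjusted p = 0.0521) and EFT1 minus EFT2 24.4 (exact adjusted p = 0.0312). Ranked by the deposited −log10 p, EFT1 minus EFT2 was 8.51 (exact adjusted p = 0.0156) and HYP2 minus ANB1 54.6 (exact adjusted p = 0.0417), and the cause was not tested. Without single libraries the differences ranged from -1.95 to -1.60 for TEF1 minus TEF2, 2.81 to 4.34 for EFT1 minus EFT2, 4.92 to 9.83 for TIF1 minus TIF2 and 33.8 to 41.0 for HYP2 minus ANB1. The exact adjusted p ranged from 0.0234 to 0.0625, 0.0469 to 0.141 and 0.0234 to 0.203 for the first 3. TEF1 against TEF2 missed the threshold without either YAC library numbered 2, at 0.0625 each. EFT1 against EFT2 passed without synHPRT1 integrated 2 alone, and TIF1 against TIF2 without synHPRT1R YAC 1 alone. The direction in tags was the same for all 4 pairs.

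For YAC against integrated, limma called 32 genes, 0 without trend and 17 to 37 without single libraries, lowest without synHPRT1R integrated 2. For synHPRT1R against synHPRT1 it called 0, and 0 to 1 without single libraries, with the 1 when synHPRT1 integrated 1 was left out. Replicate numbers did not pair the libraries: same-numbered deviations correlated at -0.06 to 0.03. With a replicate block limma called 32, 0 and 0 genes for context, sequence and their interaction, as without it, and no factor. Leaving out a library changed the call of 2 factors, TIF34 and TEF1, in the context comparison. Fisher's exact test called 0 genes under every alternative run. Its smallest p is too large to pass adjustment over all genes, so that these counts do not speak to stability.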
